A study of Mus musculus with 4 samples.

Results

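The 10 genes described here encode immediate early transcription factors: Fos, Fosl2, Jun, Junb, Egr1, Ier2, Klf2, Klf4, Myc and Srf. They were given as a list of names, not by a rule on measured values, though earlier results of these data were known when the list was made. They were found by matching the Ensembl identifiers of the deposited files to mouse symbols in GENCODE M21. All 10 were among the 25261 genes of the files. RNA sequencing had been done on total RNA of adult neural stem cells from C57BL/6 mice, labelled as 8 weeks of age. Cells labelled ctrl (n = 2 libraries) had received a lentivirus with a scramble shRNA, and cells labelled shOGT (n = 2) a lentivirus with an shRNA against mouse Ogt. All 4 libraries thus came from cells infected with a lentivirus, and uninfected cells were not analysed here. An shRNA is a short hairpin RNA that the cell processes into a small RNA which lowers its target transcript. The labels do not say how many hairpin sequences were used, nor whether replicate libraries were made from different cultures. The p-values below may therefore reflect technical spread only.

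Immediate early genes are transcribed soon after a growth factor or other signal reaches the cell, without the need for new protein synthesis. The ERK kinases act on ternary complex factors such as Elk1, which bind together with serum response factor, the product of Srf, at CArG boxes, and several kinases act on CREB at cAMP response elements. The transcripts are short-lived, many because of AU-rich elements in their 3' UTRs. FOS and JUN proteins pair as AP-1, EGR1 and the Kruppel-like factors KLF2 and KLF4 bind GC-rich DNA through zinc fingers, and MYC pairs with MAX at E-boxes. Growth factor signalling of this kind keeps neural stem cells dividing in culture. Ogt encodes O-GlcNAc transferase, which adds single sugars to nuclear and cytoplasmic proteins, MYC and SRF proteins among its known substrates. Protein and its sugar modification were not measured.

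Promoters and 3' UTR sites are shown because they are the parts of these genes through which the signal and the decay machinery are known to act. Promoter windows came from RefSeq on GRCm38.p6 and run from 250 bases before to 50 bases after the annotated start. Klf4, Jun, Fosl2, Klf2, Junb, Fos and Srf were matched there, which is 7 of the 10 genes, and Egr1, Ier2 and Myc were not matched. Searches covered both strands for the CArG box by name (CC, a run of A or T, GG), the cAMP response element TGACGTCA, its core TGACG, the AP-1 site TGAGTCA and the TATA box TATAAA. The full cAMP response element contains the core, so that each of its matches also counts for the core. Srf (chr17:46556113-46556412, minus strand) is shown with its CArG boxes in capitals, Klf4 (chr4:55532426-55532725, minus strand) with its cAMP response element core, which lies on the opposite strand, and Fos (chr12:85473640-85473939, plus strand) with its cAMP response element cores and its TATA box. All are written 5' to 3' on the strand of the gene.
Srf: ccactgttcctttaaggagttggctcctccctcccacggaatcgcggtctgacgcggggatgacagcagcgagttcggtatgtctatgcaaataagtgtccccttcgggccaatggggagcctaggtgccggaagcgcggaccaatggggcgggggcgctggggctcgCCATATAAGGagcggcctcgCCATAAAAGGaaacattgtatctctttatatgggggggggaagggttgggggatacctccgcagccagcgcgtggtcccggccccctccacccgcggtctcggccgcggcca
Klf4: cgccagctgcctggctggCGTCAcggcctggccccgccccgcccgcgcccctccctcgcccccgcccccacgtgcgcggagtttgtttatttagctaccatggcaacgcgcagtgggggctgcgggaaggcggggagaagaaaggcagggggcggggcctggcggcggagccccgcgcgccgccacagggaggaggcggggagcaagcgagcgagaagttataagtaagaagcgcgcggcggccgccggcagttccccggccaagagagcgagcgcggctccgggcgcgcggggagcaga
Fos: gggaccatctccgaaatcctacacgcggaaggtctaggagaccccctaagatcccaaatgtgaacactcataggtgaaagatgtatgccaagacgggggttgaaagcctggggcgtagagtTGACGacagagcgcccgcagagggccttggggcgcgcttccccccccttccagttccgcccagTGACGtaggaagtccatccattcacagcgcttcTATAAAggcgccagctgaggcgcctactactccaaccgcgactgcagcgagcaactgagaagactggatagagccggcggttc

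Of the 7 promoter windows, that of Srf alone held a CArG box, against 1.63% of all 32851 promoters of this length. Its first box, CCATATAAGG, began 82 bases before the start and its second, CCATAAAAGG, began 62 bases before it. The cAMP response element core was in 5 of the 7 promoters (Klf4, Klf2, Junb, Fos and Srf) and in 20.8% of all promoters. Fos held it at 129 and 66 bases before the start. The full element (1.79% of all) and the AP-1 site (5.20%) were in 0 of the 7. TATAAA was in 3 of the 7, at 33 bases before the start in Fos, at 38 on the other strand in Srf and at the start itself in Junb, and in 13.6% of all. The 7 windows were richer in G and C than the median promoter (52.7%), from 58.7% in Fos to 74.3% in Klf4. These are matches of letters and say nothing of binding in these cells. Bases outside the windows were not searched, and Egr1, Ier2 and Myc had no window. The lack of a match, for the CArG box as for the other motifs, thus does not show that a gene lacks the site.

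In the 3' UTRs the AU-rich nonamer TTATTTATT was found in Fos, Fosl2 and Srf, which is 3 of the 10 genes, against 7.92% of the 15109 tested genes with an annotated 3' UTR. The sites are given with the nonamer in capitals, on GRCm38: Fos at chr12:85477105-85477130 (plus strand), Fosl2 at chr5:32156873-32156898 (plus strand) and Srf at chr17:46549022-46549047 (minus strand).
Fos: ttttcaatTTATTTATTaagatggat
Fosl2: ttattttaTTATTTATTttaaatgtt
Srf: ggcaccacTTATTTATTgttgccttt

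The shorter pentamer ATTTA, which the nonamer contains, was present in 9 of the 10 genes and in 68.8% of genes in all. Fosl2 held 8 copies in a 3' UTR of 4653 bases, and Fos 4 in 815 bases. Jun held 4 in 1233 bases, and Junb, Egr1 and Myc held 2 each. Klf2, Klf4 and Srf held 1 each and Ier2 held 0 in 755 bases. The median gene held 1 pentamer in a 3' UTR of 1148 bases.

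The values are the deposited signal, read counts per gene divided by 1 factor per library. Their step implies 15697508 to 17753976 reads assigned to genes per library. Ogt was lower in both shOGT libraries (3379 and 3516) than in both ctrl libraries (4112 and 4138), a fall of 16.4% (log2 fold change -0.26 ± 0.04 SE, adjusted p = 0.00876). All 14 neural stem cell markers were measured, with Sox2 at 5250 to 5429 and Nes at 13187 to 15395 in the 4 libraries. Summed, the 14 were at 159030 and 162940 in ctrl and lower, at 151200 and 155680, in shOGT. Of them 0 were called higher and 3 lower, Fabp7 and Lhx2 among these, with a median log2 fold change of -0.02. Over all genes tested 4.86% were called, and 9.21% of those of mean signal at least 100. Together the 10 genes made up 0.0476% to 0.0508% of the signal of a library, and the ranges of the groups overlapped. In bulk RNA, a change in the number of cells of a type and a change in RNA per cell cannot be told apart.

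In shOGT, Klf4 was higher and Srf lower, and the other 8 genes were not called. That is 2 of 10 genes called, where 4.86% of the 21829 genes tested were called (1.96% higher and 2.90% lower), and 9.21% of the 11080 genes with a mean signal of at least 100, to which 9 of the 10 belong. The calls over all genes were 427 higher and 633 lower (40.3% higher), or 593 and 585 (50.3%) after scaling each library to the same total. A gene was called at a Benjamini-Hochberg adjusted p under 0.05 in limma, run on log2(value + 1). Every log2 fold change is on that scale, which understates changes of low genes. The median log2 fold change of the 10 genes was -0.04, beside 0.00 for all genes tested. In Klf4 and Klf2 both shOGT values lay above both ctrl values, in Srf, Egr1 and Fosl2 both lay below, and in the other 5 the groups overlapped. Over all genes tested the groups did not overlap in 49.3%, with 25.0% above and 24.3% below, so that 5 of 10 is near the background.

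**Figure D1:**
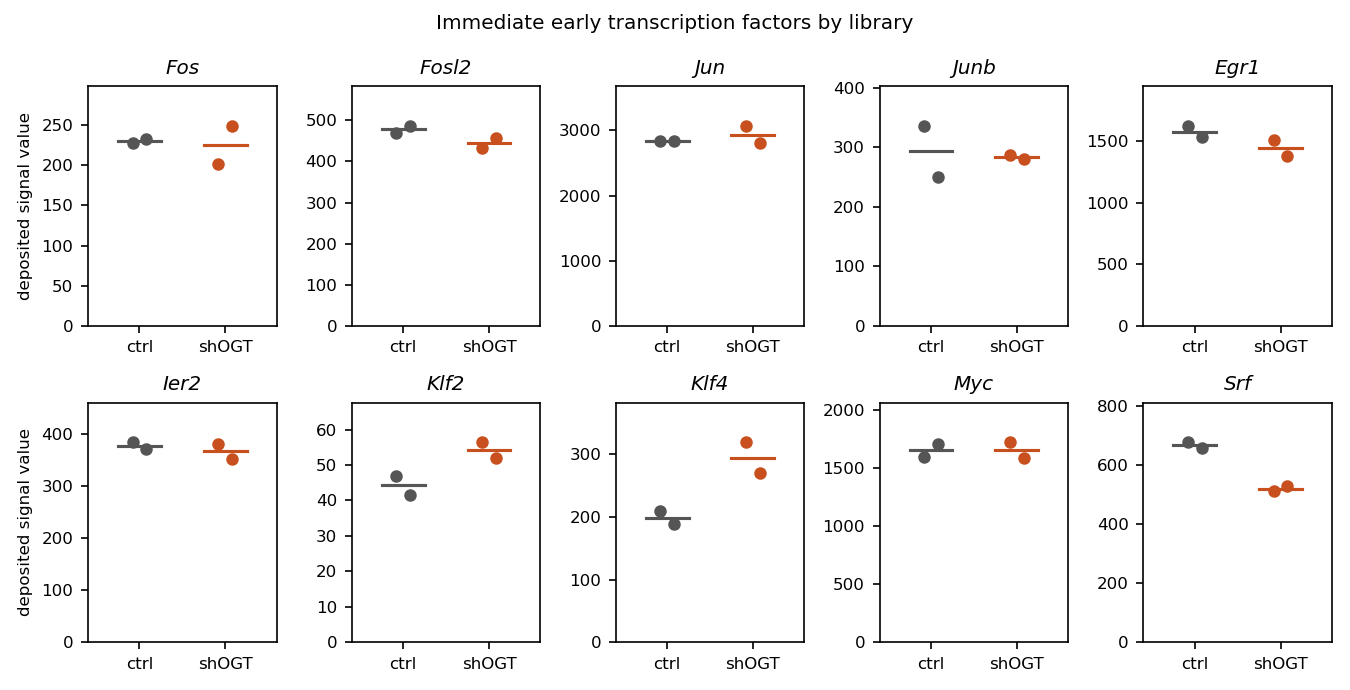
Deposited signal (y axis, from 0, scaled separately in each panel) of the 10 genes in the 2 ctrl and 2 shOGT libraries; points are libraries and lines are group means. Both shOGT points of Klf4 (271 and 319) lie above both ctrl points, both of Srf (511 and 527) lie below, and the points of Fos, Jun, Junb, Ier2 and Myc overlap.

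Klf4 encodes a zinc finger factor known for its part in reprogramming cells to pluripotency and in leaving the cell cycle. Its signal was 209 and 188 in ctrl and 319 and 271 in shOGT. Both shOGT libraries were above both ctrl libraries. The mean went from 199 ± 14.8 to 295 ± 34.2 (SD, n = 2 each), a rise of 48.2%, with a log2 fold change of 0.56 ± 0.12 (SE, 95% interval 0.30 to 0.82, adjusted p = 0.0264). Klf4 (ENSMUSG00000003032) lies on the minus strand of chromosome 4 at 55527143 to 55532466 on GRCm38, and its exons overlap no other annotated gene. The call was lost without the filter on low values (adjusted p = 0.158), with quantile normalization (0.145), without the variance trend (0.337) and without any 1 of the 4 libraries (0.297 to 0.371), while the log2 fold change stayed between 0.44 and 0.68.

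Klf2, the close relative of Klf4, was the lowest of the 10 genes. Its signal was 46.9 and 41.7 in ctrl and 56.3 and 51.8 in shOGT. The groups did not overlap and the mean was 22.2% higher in shOGT, but Klf2 was not called (log2 fold change 0.28 ± 0.22, 95% interval -0.20 to 0.77, adjusted p = 0.527). The interval contains the value of Klf4, and the difference between the changes of Klf2 and Klf4 was not tested.

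KLF2 and KLF4 are also abundant in the endothelium of blood vessels, so endothelial markers were read beside them. Summed over the 7 of 10 markers with values, they were at 77.8 and 98.2 in ctrl and 112 and 108 in shOGT. Both shOGT values lay above both ctrl values in 5 of the 7 and below in 0, with a median log2 fold change of 0.41. Over all genes tested 25.0% lay above and 24.3% below. In limma 0 of the 7 passed the test, and 0 had an unadjusted p under 0.05, beside 1060 and 4214 of all 21829 genes tested. However, 0 of the 7 reached a mean signal of 100, so that calls were unlikely. Of the 10 markers, 7 had no matching identifier or stayed under a signal of 10 in all 4 libraries. The median and the counts above and below thus rest largely on low values. Flt1, the most abundant, had a signal of 35.9 and 34.7 in ctrl and 37.2 and 50.9 in shOGT, and Egfl7, the next, had 22.9 and 29.8 in ctrl and 26.6 and 20.7 in shOGT. Pecam1, a defining endothelial marker, had 2.99 and 4.96 in ctrl and 5.32 and 5.66 in shOGT. No identifier among the genes with values matched Cdh5, Cldn5 or Tie1. Microglial markers, 6 of 10 with values, summed to 8.93 to 13.2 in the 4 libraries. The part of such cells in the values of Klf2 and Klf4 was not tested.

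Further Kruppel-like factors were chosen as Klf2 and Klf4 relatives outside the other lists, and 11 were tested. Of these limma called 0, with 3 at an unadjusted p under 0.05 and a median log2 fold change of -0.05. Among all 21829 genes tested, 4214 had an unadjusted p under 0.05 in limma and 4.86% were called. At a mean signal of at least 100, which 7 of the 11 reached, 9.21% were called. Klf3, a repressor, had a signal of 2797 and 2941 in ctrl and 3201 and 3140 in shOGT (log2 fold change 0.14, adjusted p = 0.1000). Klf9, a factor that responds to glucocorticoids and thyroid hormone, had 1230 and 1203 in ctrl and 1050 and 1107 in shOGT (-0.17, adjusted p = 0.116). Klf13 (-0.19, adjusted p = 0.145) and Klf7 (0.11, adjusted p = 0.428) also missed the threshold. Klf4 was thus the only called gene among Klf2, Klf4 and these 11.

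Srf encodes serum response factor, which binds CArG boxes in the promoters of immediate early and actin cytoskeleton genes. Its signal was 675 and 658 in ctrl and 511 and 527 in shOGT. Both shOGT libraries were below both ctrl libraries, with a gap wider than the spread within either group. The mean went from 666 ± 12.4 to 519 ± 11.0 (SD, n = 2 each). This is a fall of 22.1%, with a log2 fold change of -0.36 ± 0.07 (SE, 95% interval -0.51 to -0.21, adjusted p = 0.0171). Srf (ENSMUSG00000015605) lies on the minus strand of chromosome 17 at 46548329 to 46556175 and overlaps no other annotated exon. Each of the settings just given for Klf4 left 0 genes called in all, so that Srf and each other called gene named here lost its call there. For Srf the adjusted p was 0.118 without the filter, 0.109 with quantile normalization, 0.303 without the variance trend, and 0.297 to 0.352 without any 1 library, with log2 fold changes of -0.38 to -0.34.

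Of 6 tested genes for partners of SRF, 1 was called, and it was higher. The share called was 4.86% over all genes tested and 9.21% over those of mean signal at least 100, to which 5 of the 6 belong. Mrtfb, which encodes an actin-regulated coactivator of SRF, had a signal of 773 and 711 in ctrl and 1029 and 985 in shOGT (log2 fold change 0.44 ± 0.06, adjusted p = 0.00683). Both shOGT values were thus above both ctrl values. The exons of Mrtfb share 162 bases with the antisense gene Gm15738, and counting by strand is not stated. Its relative Mrtfa had 318 and 300 in ctrl and 375 and 339 in shOGT and missed the threshold (0.21 ± 0.09, adjusted p = 0.251). The ternary complex factors Elk3 (0.06, adjusted p = 0.630) and Elk4 (-0.10, adjusted p = 0.399) were not called either.

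Among 28 tested cytoskeletal genes known as SRF targets, 2 were called higher and 3 lower, with a median log2 fold change of -0.04. The share called was 4.86% over all genes tested and 9.21% over those of mean signal at least 100, to which 21 of the 28 belong. Zyx, which encodes the focal adhesion protein zyxin, had a signal of 823 and 833 in ctrl and 590 and 552 in shOGT (log2 fold change -0.54 ± 0.07, adjusted p = 0.00322). Tpm4, a tropomyosin, fell from 2688 and 2741 to 2214 and 2195 (-0.30 ± 0.04, adjusted p = 0.00578). Coro1b, a coronin that acts on branched actin, fell from 1509 and 1477 to 1273 and 1314 and lay just inside the threshold (-0.21 ± 0.05, adjusted p = 0.0499).

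The other called pair moved the opposite way. Vcl, which encodes vinculin at the cell's adhesions, rose from 1136 and 1172 to 1395 and 1472 (log2 fold change 0.31 ± 0.05, adjusted p = 0.0133). Myh9, the heavy chain of a nonmuscle myosin, rose from 7092 and 7158 to 8382 and 8304 (0.23 ± 0.03, adjusted p = 0.00683). In each of these 5 genes the groups did not overlap. Actb, the cytoplasmic actin gene and a textbook SRF target, had 22326 and 22598 in ctrl and 22867 and 21844 in shOGT (-0.01, adjusted p = 0.938); it was named after its values were seen. Exons of Zyx, Tpm4, Coro1b and Vcl overlap those of other genes, by 2090 of 8191 bases in Vcl.

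**Figure D2:**
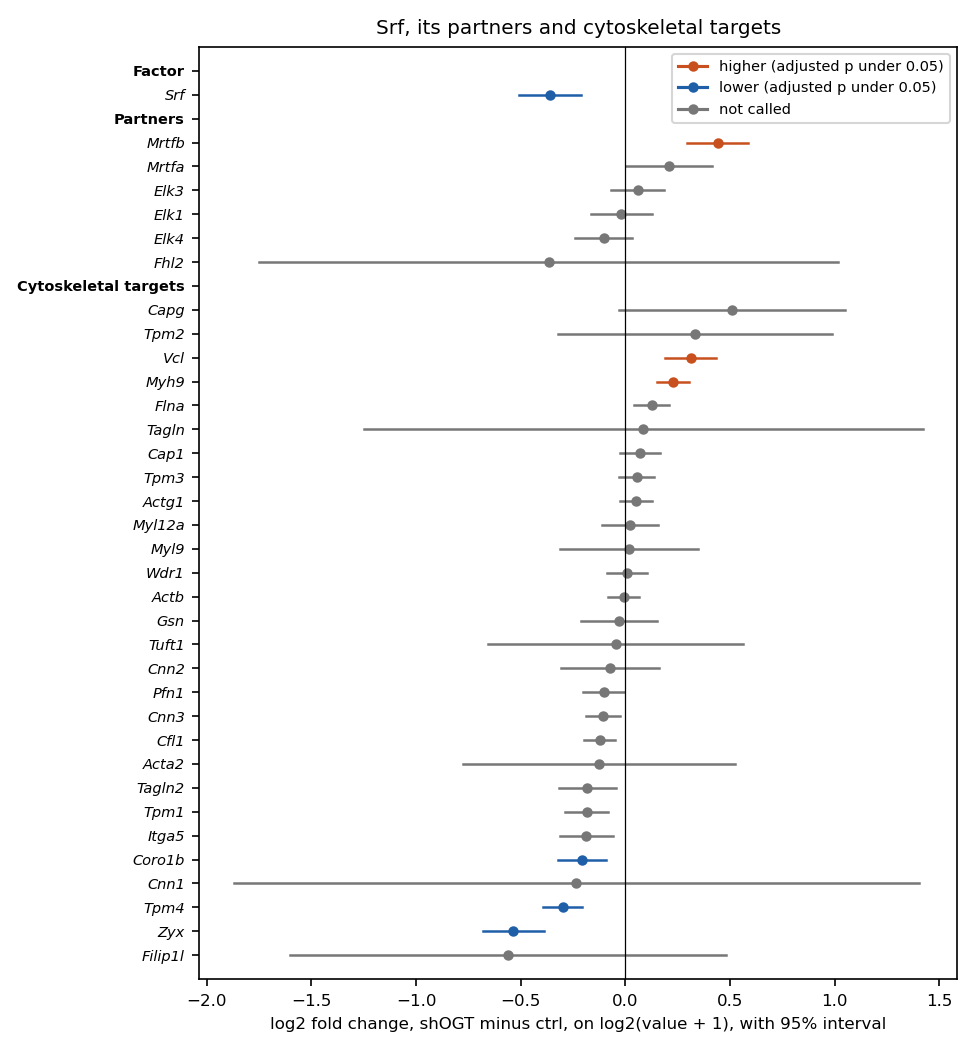
Log2 fold change of shOGT over ctrl (x axis, on log2(value + 1)) of Srf, 6 genes for its partners and 28 cytoskeletal targets; points are estimates and bars 95% intervals from limma, orange for called higher, blue for called lower and grey for not called. Srf lies at -0.36 and Mrtfb at 0.44, and the targets spread to both sides of 0 with a median of -0.04.

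Across the transcriptome, 214 tested genes had a promoter with a CArG box in the window searched. Of these, 3 were called higher and 9 lower, or 5.61%, beside 6.13% of the 13189 tested genes with a promoter sequence (325 higher and 484 lower). Their median log2 fold change was -0.02, against 0.00 for the latter. Among the genes with such a promoter were Vcl, called higher, and Srf itself and Ldha, called lower. Egr2, Huwe1 and Zfp36, not called, were among them too.

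Fos and its relatives supply AP-1 with its FOS subunits, which dimerise with JUN proteins. Fos had a signal of 227 and 232 in ctrl and 201 and 249 in shOGT. The shOGT libraries lay on either side of both ctrl libraries, and the spread in shOGT (225 ± 33.9) was larger than in ctrl (230 ± 3.35). The log2 fold change was -0.04 ± 0.12 (95% interval -0.31 to 0.23, adjusted p = 0.909). It was 0.11 without shOGT 1, so that it has no stable direction.

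Fosl2, which encodes the FOS-related protein FRA2, had a signal of 470 and 486 in ctrl and 432 and 457 in shOGT. Both shOGT values were below both ctrl values, with a difference of -7.0% in the mean (log2 fold change -0.10 ± 0.08, 95% interval -0.27 to 0.06, adjusted p = 0.497). The relatives Fosb and Fosl1, outside the naming rule and chosen after their values were seen, complete the FOS family. Fosb was low, at 15.0 and 6.94 in ctrl and 26.6 and 21.7 in shOGT (1.15 ± 0.42, adjusted p = 0.173). Fosl1 had 86.8 and 96.2 in ctrl and 97.8 and 103 in shOGT (0.13, adjusted p = 0.702). No gene of the FOS family passed the test.

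Jun encodes the AP-1 subunit that also pairs with itself. Its signal was 2841 and 2837 in ctrl and 3067 and 2805 in shOGT. The ctrl libraries lay between the shOGT libraries, and the log2 fold change was 0.05 ± 0.05 (95% interval -0.07 to 0.16, adjusted p = 0.667), or -0.02 without shOGT 1. Jun shares 232 exon bases with its antisense gene Junos.

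Junb, whose protein often restrains that of Jun, had a signal of 336 and 251 in ctrl and 287 and 281 in shOGT. Here the ctrl libraries were the far apart pair (294 ± 60.2, against 284 ± 4.35 in shOGT), and the shOGT values lay between them. The log2 fold change was -0.03 ± 0.13 (95% interval -0.33 to 0.26, adjusted p = 0.926) and turned to 0.18 without ctrl 1. Junb shares 173 exon bases with Prdx2 on the other strand. Jund, the remaining JUN gene, had 627 and 597 in ctrl and 542 and 502 in shOGT, so that the groups did not overlap (-0.23 ± 0.07, adjusted p = 0.116). It shares 877 of its 1668 exon bases with an antisense gene.

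Genes of other basic leucine zipper proteins, some of which pair with FOS or JUN, gave 1 called higher and 1 called lower of 17 tested, with a median log2 fold change of 0.04. Of all genes tested 4.86% were called, and 9.21% of those of mean signal at least 100, to which 12 of the 17 belong. Nfe2l2, which encodes the oxidative stress regulator NRF2, rose from 1916 and 2005 to 2376 and 2580 (log2 fold change 0.34 ± 0.05, adjusted p = 0.00922). Nfe2l1, the gene of its relative NRF1, fell from 5661 and 5855 to 4657 and 5040 (-0.25 ± 0.05, adjusted p = 0.0162). Maf (0.22, adjusted p = 0.251) and Mafg (0.10, adjusted p = 0.260) were not called. The 2 calls thus went in opposite directions.

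Egr1, a zinc finger factor and a classic SRF target, had a signal of 1622 and 1532 in ctrl and 1508 and 1380 in shOGT. Both shOGT values were below both ctrl values, but the closest libraries differed by less than the spread within either group. The means were 1577 ± 63.6 in ctrl and 1444 ± 90.2 in shOGT (SD, n = 2 each), a difference of -8.42%, with a log2 fold change of -0.13 ± 0.06 (95% interval -0.26 to 0.01, adjusted p = 0.275). Egr1 was not called. With a minimum value of 10 and without shOGT 1, a combination chosen after the data had been seen, it was (-0.19, adjusted p = 0.0172).

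The other EGR genes were much lower in signal. Egr2 had 119 and 132 in ctrl and 92.5 and 69.8 in shOGT (log2 fold change -0.63 ± 0.18, adjusted p = 0.0781). The groups did not overlap, and at a minimum value of 10 Egr2 was called (adjusted p = 0.0267). Egr3 had 130 and 109 in ctrl and 105 and 44.3 in shOGT (-0.79, adjusted p = 0.226), where shOGT 2 stood apart, and Egr4 stayed between 99.2 and 101 in all 4 libraries. Egr3 and Egr4 were named after their values were seen. With the filter used throughout, none of the 4 EGR genes was called.

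Ier2, a small nuclear protein induced by growth factors, had a signal of 384 and 372 in ctrl and 382 and 353 in shOGT. The groups overlapped (log2 fold change -0.04 ± 0.08, 95% interval -0.23 to 0.14, adjusted p = 0.841), and the estimate was 0.01 without shOGT 2.

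Myc encodes the E-box factor that drives ribosome production, growth and division. Its signal was 1597 and 1708 in ctrl and 1721 and 1586 in shOGT. The shOGT libraries lay on either side of both ctrl libraries. The means were 1652 ± 78.9 and 1653 ± 96.0 (SD, n = 2 each). The log2 fold change was 0.00 ± 0.06 (95% interval -0.13 to 0.13, adjusted p = 0.9996). A change of Myc of the size seen in Srf or Klf4 lies outside that interval.

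Of 15 genes of the MYC network, limma called 0, with 5 at an unadjusted p under 0.05 and a median log2 fold change of -0.09. Over all 21829 genes tested, limma put 4214 under an unadjusted p of 0.05 and called 4.86%. It called 9.21% of those of mean signal at least 100, to which 13 of the 15 belong. Mycn, the MYC relative of the developing nervous system, was low, at 28.9 and 30.8 in ctrl and 12.8 and 17.0 in shOGT (-0.97 ± 0.32, adjusted p = 0.134). The groups of Mycn did not overlap. The genes of the MAX partners MXD3 (Mxd3, -0.24, adjusted p = 0.110) and MXI1 (Mxi1, 0.19, adjusted p = 0.234) and of the ubiquitin ligase HUWE1 (Huwe1, 0.10, adjusted p = 0.153) also missed the threshold.

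Among 30 known MYC targets, mostly of ribosome production and metabolism, 1 was called higher and 1 lower, and the median was 0.02. All 30 had a mean signal of at least 100, where 9.21% of genes were called, against 4.86% of all genes tested. Gnl3, which encodes the nucleolar protein nucleostemin, had 1048 and 1055 in ctrl and 1212 and 1231 in shOGT (log2 fold change 0.22 ± 0.05, adjusted p = 0.0483). Ldha, lactate dehydrogenase A, had 16186 and 15213 in ctrl and 13920 and 11600 in shOGT (-0.30 ± 0.07, adjusted p = 0.0426). In both the groups did not overlap. Exons of Gnl3 hold those of 3 small nucleolar RNAs. Mybbp1a (0.19, adjusted p = 0.0620) and Cdk4 (-0.11, adjusted p = 0.123) were not called.

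The 24 further immediate early genes were of transcription factors and a few other regulators of gene expression such as Btg2 and Zfp36. They gave 0 calls in limma, with 9 at an unadjusted p under 0.05 and a median log2 fold change of -0.10. Of all 21829 genes tested, 4214 had an unadjusted p under 0.05 in limma and 4.86% were called. The share called was 9.21% for genes of mean signal at least 100, to which 14 of the 24 belong. Both shOGT values lay below both ctrl values in 9 of them and above in 7, where over all genes tested 24.3% lay below and 25.0% above. Crem, a cAMP-responsive regulator, had 384 and 374 in ctrl and 314 and 326 in shOGT (-0.24 ± 0.08, adjusted p = 0.137), with its different transcripts not told apart. Btg2, an antiproliferative gene, had 549 and 572 in ctrl and 678 and 616 in shOGT (0.21 ± 0.07, adjusted p = 0.161). With Jund and Egr2, these were the closest to the threshold.

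**Figure D3:**
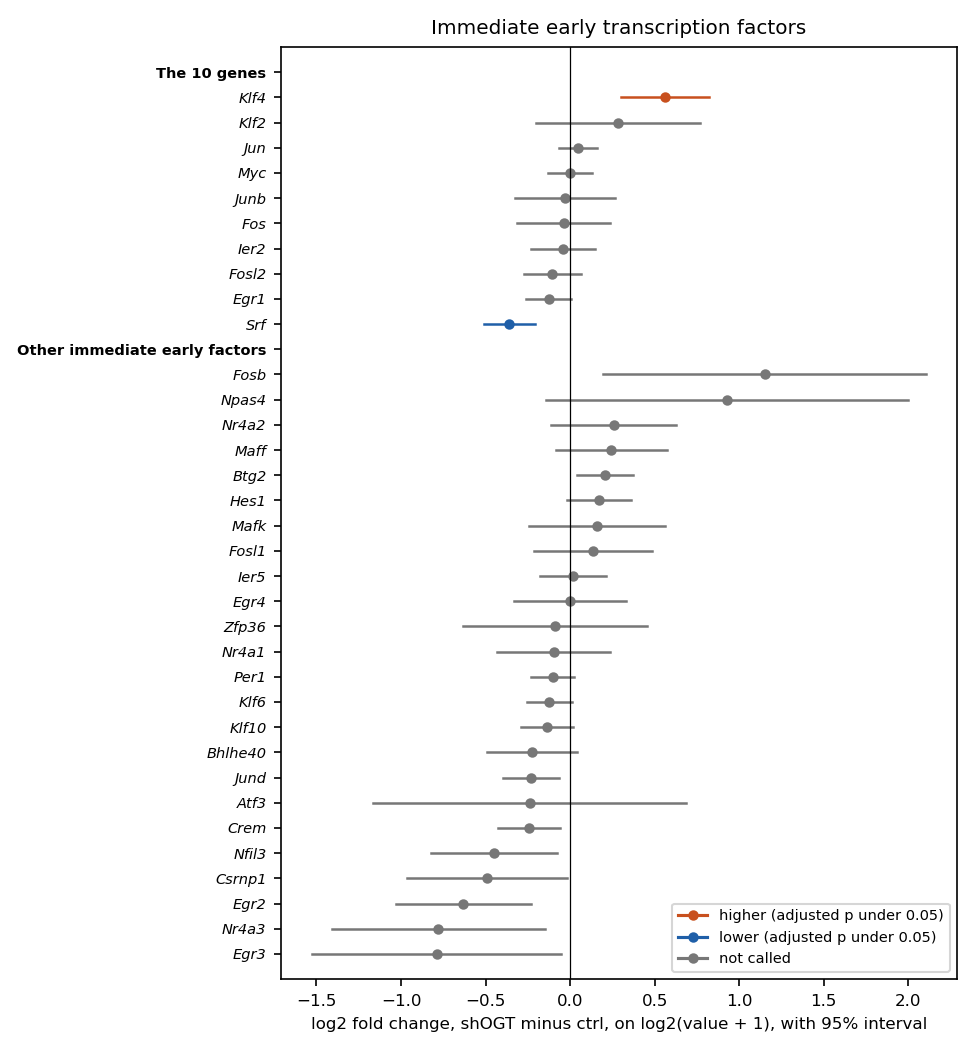
Log2 fold change of shOGT over ctrl (x axis, on log2(value + 1)) of the 10 genes and of 24 further immediate early genes of transcription factors and other regulators; points are estimates and bars 95% intervals from limma, orange for called higher, blue for called lower and grey for not called. Klf4 (0.56) and Srf (-0.36) are called, and the 24 others are not.

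Of 25 immediate early genes whose products are not transcription factors, 3 were called higher and 2 lower, with a median log2 fold change of 0.05. Of all genes tested 4.86% were called, and 9.21% of those of mean signal at least 100. Dusp6, the ERK phosphatase that is itself switched on by ERK, rose from 6363 and 6664 to 7841 and 8062 (0.29 ± 0.04, adjusted p = 0.00423). Nptx2, a secreted synaptic pentraxin, rose from 987 and 937 to 1447 and 1327 (0.53 ± 0.06, adjusted p = 0.00264). Mcl1, a survival gene, rose from 3920 and 3853 to 4284 and 4644 (0.20 ± 0.05, adjusted p = 0.0422).

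The called pair that fell was Homer1 and Gadd45g. Homer1, a synaptic scaffold, had 1159 and 1178 in ctrl and 955 and 868 in shOGT (log2 fold change -0.36 ± 0.06, adjusted p = 0.0136). With 1 value per gene, the different transcripts of Homer1 cannot be told apart. Gadd45g, a growth arrest gene, had 795 and 729 in ctrl and 622 and 600 in shOGT (-0.32 ± 0.07, adjusted p = 0.0330).

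Upstream of these factors, 29 genes of the RAS, MAP kinase and CREB path held 1 called higher and 2 called lower, with a median of 0.00. All 29 had a mean signal of at least 100, where 9.21% of genes were called, against 4.86% of all genes tested. Rps6ka1, which encodes the ERK-activated kinase RSK1, rose from 1337 and 1206 to 2115 and 2055 (log2 fold change 0.71 ± 0.06, adjusted p = 0.000613). Among those called lower, Mapk8, the gene of the JUN kinase JNK1, fell from 845 and 850 to 694 and 722 (-0.26 ± 0.06, adjusted p = 0.0425). Crtc2, a CREB coactivator, was not called (0.28, adjusted p = 0.0668). Exons of Rps6ka1 overlap those of an antisense gene.

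Among 18 genes of AU-rich element binding and mRNA decay, 1 was called, and it was higher. The share called was 4.86% over all genes tested and 9.21% over those of mean signal at least 100, to which 17 of the 18 belong. Zfp36l2, which encodes a protein that binds AU-rich elements and recruits the deadenylation machinery, had 1996 and 1933 in ctrl and 2272 and 2258 in shOGT (log2 fold change 0.21 ± 0.04, adjusted p = 0.0327). Its exons share 105 bases with an antisense gene. Zfp36l1 (0.14, adjusted p = 0.243) and Tia1 (0.14, adjusted p = 0.0928) were not called. Of the 1196 genes with the nonamer, 9.11% were called with a median of 0.00, beside 6.76% and 0.00 for all 15109 genes with a 3' UTR.

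**Figure D4:**
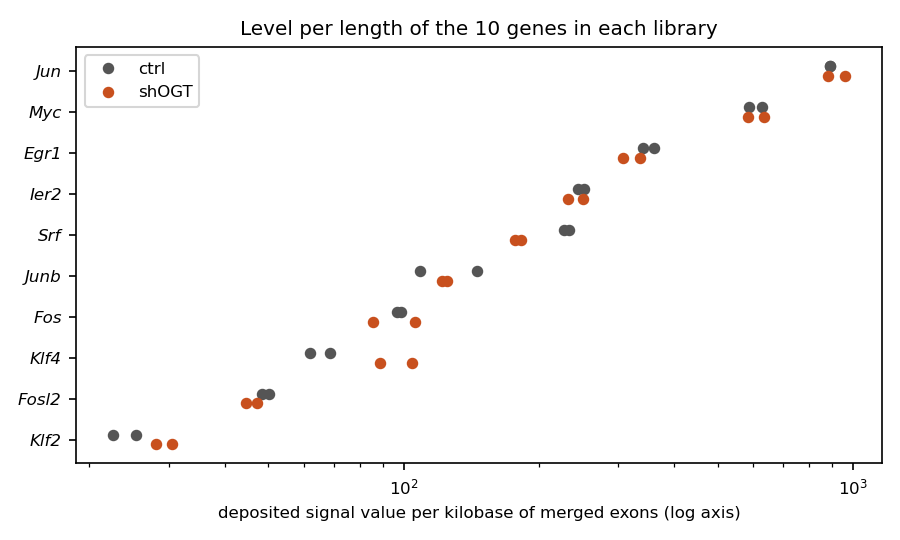
Deposited signal per kilobase of merged exons (x axis, log scale) of the 10 genes in each library, in order of the mean over the 4 libraries; grey points are ctrl and orange points shOGT. Levels run from 26.6 in Klf2 to 906 in Jun, and the ranges of Ier2 with Srf and of Fos with Klf4 overlap.

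Signal per kilobase of exon allows levels to be compared between genes. The order, as the mean of the 4 libraries ± SD, was Jun (906 ± 37.9), Myc (608 ± 26.4), Egr1 (337 ± 22.2), Ier2 (245 ± 9.40) and Srf (205 ± 29.6). Below these came Junb (125 ± 15.3), Fos (96.7 ± 8.44), Klf4 (81.0 ± 19.5), Fosl2 (47.6 ± 2.37) and Klf2 (26.6 ± 3.43). Among all genes tested Jun was at percentile 95.9 and Klf2 at percentile 46.1.

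Neighbours in this order did not overlap in their range over the 4 libraries, with 2 exceptions, Ier2 with Srf and Fos with Klf4. Srf per kilobase was 233 and 227 in ctrl, close below Ier2 (252 and 244), and 177 and 182 in shOGT, where Ier2 had 251 and 232. Klf4 per kilobase was 68.7 and 61.8 in ctrl, below Fos at 96.7 and 98.7, and 105 and 88.7 in shOGT, within the span of Fos at 85.4 and 106.

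For Fos, Egr1 and Myc, the 3 genes with the most similar pattern over the 4 libraries were sought among 11080 genes of mean signal at least 100, by the Euclidean distance between centred log2 values. For Fos they were Gm17018 (distance 0.02), Kctd12 (0.02) and Etv1 (0.04). For Egr1 they were Kif2c, Gas2l3 and Fkbp7 (0.02 each), and for Myc Msl2, Rabggtb (0.01 each) and Xrcc5 (0.02). The likeness rests on 4 libraries and is a description only.

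Markers of other cells were read beside these results. Oligodendrocyte lineage markers summed to 5083 and 4990 in ctrl and 4640 and 4174 in shOGT, with 2 of 8 tested called lower (Pdgfra and Gpr17). Astrocyte markers summed to 33850 to 34530 in ctrl and 32902 to 34478 in shOGT, with 1 called higher (Glul) and 3 lower (Aldh1l1, Slc1a2 and Gja1) of 8. Neuron markers summed to 20356 and 21171 in ctrl and 20524 and 20444 in shOGT, with Map2 called higher and Gap43 lower of 11. Markers of pericytes, smooth muscle and fibroblasts summed to 2466 and 2381 in ctrl and 2325 and 1950 in shOGT, nearly all from Cspg4, which is also an oligodendrocyte lineage marker. The median log2 fold change was -0.28 for oligodendrocyte lineage, -0.08 for astrocyte and 0.27 for neuron markers. Both shOGT values lay below both ctrl values in 6 of 8, 4 of 8 and 2 of 11 of these, and above in 1, 2 and 6. Over all genes tested 24.3% lay below and 25.0% above. The share called was 4.86% over all genes tested and 9.21% over those of mean signal at least 100. The part of shifts in such cell types in the values of Klf4 and Srf was not tested.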

How the data were processed

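The authors deposited 1 signal value per gene and library, and per the submitters' processing notes the genome build was mm10; aligner, counting and normalization remain not given in the sources used here. Every value was a whole multiple of 1 step per library (0.997, 0.992, 1.06 and 0.943 in ctrl 1, ctrl 2, shOGT 1 and shOGT 2; 100% of values within 0.01 of a step), the form of read counts divided by 1 factor per library. No model of whole counts was fitted. Of 25261 identifiers, 25250 matched GENCODE M21 (GRCm38, the assembly of mm10) and 11 did not.

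limma 3.58.1 in R 4.3.3 was run on log2(value + 1), with a variance trend, over the 21829 genes that reached a value of 1 in 2 or more libraries, 2-sided, with Benjamini-Hochberg adjustment over all of them. The plan named this test for normalized values. Before use it was run on simulated data with the same dispersion set for all genes. It recovered 56.7% of genes changed by a log2 fold of 0.3, 89.6% at 0.5 and 100% at 1, with 1 false call. The changed genes were drawn only from those of mean signal at least 100, so that recovery of lower genes such as Klf2 was not measured. Whether that dispersion matches the spread of these data was not tested.

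The 10 genes, the 10 pathway lists and the 7 marker lists were chosen with earlier results of these data known, so that no list is independent evidence. Named were the 10 genes and, of each pathway list, every called gene and, where fewer than 4 were called, those of smallest p up to 4; some genes that this rule or the marker lists include are not reported here. Replicate numbers do not pair the libraries by any label. Alternatives covered the pseudocount, filter, scaling, variance trend, replicate block and left-out libraries. Library depth limits the precision of low genes such as Klf2. Promoter and 3' UTR motifs were counted in Python 3.11.15. With 2 libraries a group, exact permutation cannot give a p under 0.05, and model p-values are given.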

Additional observations from a re-analysis of the deposited data

How the results depend on the processing

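With 4 libraries the number of calls depended on the setting far more than the fold changes did. Beside 427 genes higher and 633 lower, the calls were 0 and 0 without the filter, with quantile normalization, without the variance trend, and at a minimum of 10 without the trend, where limma put 4302, 3998, 2763 and 2891 genes under an unadjusted p of 0.05. They were 822 and 1133 at a minimum of 10, 799 and 858 there with quantile normalization, and 593 and 585 after rescaling to equal totals, where 50.3% of calls were higher against 40.3%. Without any 1 library they were 0 and 0 over the genes tested above, with 2484 to 3389 genes at an unadjusted p under 0.05, and at a minimum of 10 they were 99, 150, 1017 and 991 higher and 176, 179, 1318 and 1466 lower without ctrl 1, ctrl 2, shOGT 1 and shOGT 2. The combinations with a minimum of 10 were chosen after seeing the data.

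Of the 10 genes, 0 instead of 2 were called in the 4 settings that gave no calls. There Klf4 had a log2 fold change of 0.56 (0.57 with quantile normalization) and Srf of -0.36 (-0.34). Both were called with pseudocounts of 0.5 and 5, with rescaling, and at a minimum of 10 with or without quantile normalization. Without any 1 library 0 of the 10 were called, and 0 to 3 at a minimum of 10, where the adjusted p was 0.0658, 0.127, 0.0165 and 3.35e-05 for Klf4 and 0.109, 0.0789, 0.00171 and 0.000337 for Srf (in the same order). There the log2 fold change of Klf4 was 0.638 without ctrl 1 and 0.486 without ctrl 2. Leaving out 1 library moved the log2 fold change of Fos from -0.19 to 0.11, Jun from -0.0173 to 0.11, Junb from -0.24 to 0.18, Ier2 from -0.10 to 0.0143 and Myc from -0.0587 to 0.0597 (-0.0482 without ctrl 1), with the same values at a minimum of 10. It stayed on one side of 0 for Fosl2 (-0.15 to -0.06), Egr1 (-0.19 to -0.06), Klf2 (0.20 to 0.37), Klf4 (0.44 to 0.68) and Srf (-0.38 to -0.34). What made the calls differ between the settings was not tested, the number of libraries included.

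With the replicate number as a block, 1007 genes were higher and 1295 lower, Klf4 and Srf stayed called, and 4 of the 24 further immediate early genes were called lower instead of 0, Egr2 among them (adjusted p = 0.00698). Egr2 was also called at a minimum of 10 with quantile normalization (0.041). Deviations of same-numbered libraries had a correlation of 0.01 across all genes tested, so that the numbers give no sign of pairing. The planned edgeR and DESeq2 alternatives were not run. Named list genes kept their side of the threshold in 520 values over the settings, lost the call in 185 and gained it in 33.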
